A study of Mus musculus with 7 samples.

Results

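The genes described here are 10 genes of the choroid plexus epithelium: Ttr, Folr1, Kl, Clic6, Kcnj13, Aqp1, Prlr, Sostdc1, Enpp2 and Calml4. They were chosen by name, and every array probe whose RefSeq transcript carries 1 of these symbols was taken. Of the 10 genes, 9 had a named probe, with 11 probes in all, among 17178 named genes on the array. Kcnj13, which encodes an inwardly rectifying potassium channel, had no named probe and was not analysed here. Of the 9, 8 passed the filter used for testing (3 or more of the 7 arrays well above background), and Ttr did not.

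RNA came from microdissected ganglionic eminences and septum, the subpallial part of the telencephalon, taken at E12.5 from female embryos of the CD-1 mouse strain, 1 embryo for each array. The 4 controls are compared with 3 conditional knockouts, labelled Otx2 cKO, made with Otx2flox and the RxCre line. The labels do not say which alleles the controls carried. Nothing in the labels pools embryos. Per the series description, RxCre is active through most of the forebrain but spares the caudal dorsomedial region, to which the choroid plexus and cortical hem belong. The comparison asks which genes in the ganglionic eminences and septum depend on Otx2, a homeodomain transcription factor of the developing forebrain.

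The choroid plexus is a folded epithelium in the brain ventricles that secretes cerebrospinal fluid and moves ions, water, hormones and vitamins between blood and fluid. In the telencephalon it forms at the dorsal midline, next to the cortical hem, under the influence of bone morphogenetic proteins, and Otx2 is known to be needed for its development. It encloses a core of vessels and mesenchyme. In a bulk sample, fewer cells of a type and less RNA per cell cannot be told apart.

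The litter labels, read here as litter and embryo number, place control replicates 2 and 3 and cKO replicates 1 and 3 in litter 2. Control replicate 1 came from litter 3, control replicate 4 from litter 4 and cKO replicate 2 from litter 1. Arrays lay on 2 slides, with control replicates 1 and 2 and cKO replicate 1 on slide 1. Between 68.4% and 72.2% of spots per array were well above background, none was saturated, and the log2 values of any pair of arrays correlated at 0.980 or more across genes. The signal of Otx2 itself ran against the label: it was 0.18, 0.54, 0.47 and 0.55 in controls 1 to 4 and 1.77, 2.33 and 1.77 in cKO-labelled embryos 1 to 3, in log2 units relative to the 75th percentile of each array, the scale used throughout. The difference was 1.52 ± 0.17 (SE, n = 4 and 3; limma, adjusted p = 0.0338), and each of the 7 fits without 1 array ended that call. The labels do not say whether this probe lies inside the deleted part, so every direction below rests on the labels. All 12 genes of a subpallium list, such as Dlx1, Dlx2 and Nkx2-1, were well above background on every array.

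No member differed between the groups beyond the threshold. Of the 8 members tested 0 rose and 0 fell at an adjusted p of 0.05 (limma, adjusted over 13346 genes), whereas 0.210% of all genes tested passed, 0.0824% higher and 0.127% lower. Without adjustment the count at a p under 0.05 was also 0, against 11.0% of all genes. For none of the 8 did the 3 cKO-labelled arrays all lie outside the control range, which 12.8% of all genes tested showed, 5.14% higher and 7.64% lower. The members varied from embryo to embryo in both groups, and Sostdc1, Enpp2 and Calml4 were higher in the 3 embryos from outside litter 2 than in all 4 embryos of litter 2. This split was looked for after the values were seen, and 3.89% of all genes measured in all 7 embryos showed it. Calml4 had passed the filter only through those 3 embryos, and the values of the other tested members overlapped.

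Ttr encodes transthyretin, the thyroid hormone carrier that is the hallmark secreted protein of the choroid plexus. Its probe was well above background on 0 of 7 arrays. The processed signal, in scanner units, was 4.29, 10.6, 1.60 and -0.18 in controls 1 to 4 and 3.21, 0.56 and -0.84 in cKO-labelled embryos 1 to 3. The lowest signal that counted as well above background was 7.88 to 11.8 units, depending on the array. In control replicate 2 it was 8.62 units, below the 10.6 units of Ttr there, but the scanner software did not mark that Ttr spot as well above background. Ttr was thus not well above background in any embryo, and no fold can be given. Ttr had 1 probe with 1 spot per array, so an absent transcript and a probe that does not respond cannot be told apart. Because this probe of the defining marker gave no detection, the other members are given below as single genes. They are not taken as a measure of choroid plexus tissue.

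**Figure D1:**
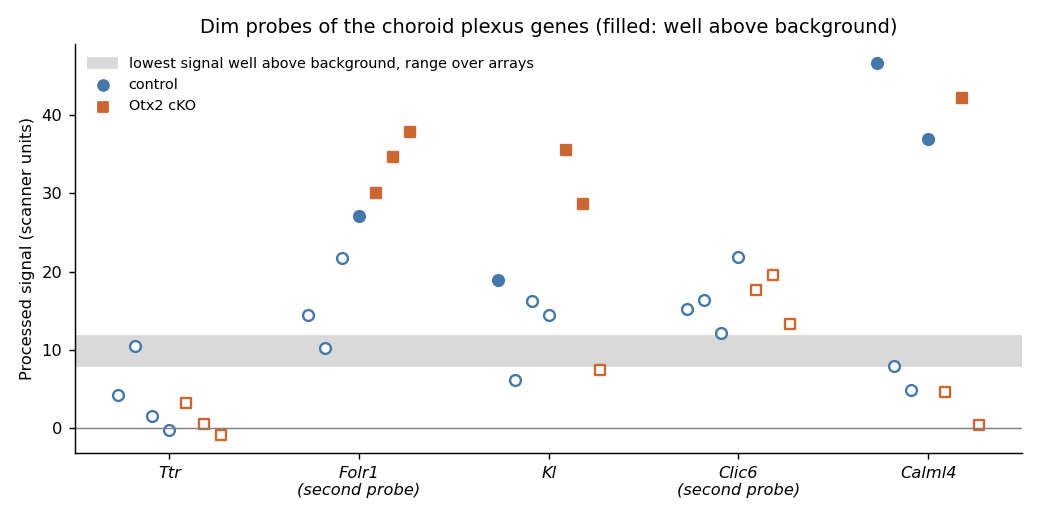
Processed signal (scanner units) of the 5 member probes that were not well above background on all arrays, with controls 1 to 4 (circles) and cKO-labelled embryos 1 to 3 (squares) from left to right. Filled symbols are well above background, and the grey band spans 7.88 to 11.8, the range over arrays of the lowest such signal. All 7 Ttr symbols are open.

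Folr1 encodes folate receptor alpha, which carries folate across the choroid plexus into cerebrospinal fluid. Its brighter probe read -4.12, -4.42, -4.01 and -4.04 in controls 1 to 4 and -4.24, -3.91 and -3.48 in cKO-labelled embryos 1 to 3. cKO replicates 2 and 3 lay above all controls, but cKO replicate 1 lay inside the control range. The difference was 0.27 ± 0.19 (SE, n = 4 and 3; limma, adjusted p = 0.658), with a 95% interval of -0.19 to 0.73. Folr1 gave 0.45 without cKO replicate 1, 0.18 without control replicate 2, 0.072 without cKO replicate 3, 0.033 within slide 1 and 0.67 with the mean of its probes. The second Folr1 probe was dim, with processed signals of 14.4, 10.2, 21.7 and 27.0 units in controls and 30.0, 34.6 and 37.9 units in cKO-labelled arrays. It was well above background in 1 of 4 controls and in all 3 cKO-labelled arrays, and its groups did not overlap, as was true of 11.2% of single probes (5.31% with the cKO-labelled arrays higher). Tested over single probes, of which 0.0701% passed, it gave 1.07 ± 0.34 (SE, n = 4 and 3; limma, adjusted p = 0.437), and the probe had passed the filter mainly through the group in which it was higher.

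Aqp1 encodes a water channel of the apical membrane of the choroid plexus, also found in red blood cells and in endothelium outside the brain. Its signal was -4.63, -5.64, -4.52 and -3.37 in controls 1 to 4 and -5.31, -2.92 and -4.21 in cKO-labelled embryos 1 to 3. The lowest value was that of control replicate 2 and the highest that of cKO replicate 2, a 6.59-fold span that was wider than in 97.3% of genes tested. The group difference was 0.39 ± 0.68 (SE, n = 4 and 3; limma, adjusted p = 0.873). The interval ran from -1.23 to 2.01, so a change of more than 2-fold in either direction was not resolved. Leaving out cKO replicate 2 turned the sign, to -0.22, and the difference within slide 1, where cKO replicate 1 is the only cKO-labelled array, was -0.17.

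Clic6, a member of the chloride intracellular channel family, had the lower mean in the cKO-labelled group. Its brighter probe read -3.57, -3.51, -4.11 and -3.03 in controls 1 to 4 and -4.05, -3.51 and -4.33 in cKO-labelled embryos 1 to 3. Control replicate 4 was the highest and cKO replicate 3 the lowest, with the rest mixed. The difference was -0.41 ± 0.29 (SE, n = 4 and 3; limma, adjusted p = 0.655), with an interval of -1.09 to 0.28. It was negative in all 23 alternatives and passed the threshold in 0, running from -0.63 without cKO replicate 2 to -0.12 with the mean of its probes. Without control replicate 4 Clic6 gave -0.23 and without cKO replicate 3 -0.22. The second Clic6 probe was well above background on 0 of 7 arrays.

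Both hormone and growth factor receptor genes of the set had higher means in the cKO-labelled group, with overlapping values. Prlr, the prolactin receptor gene, read -5.74, -5.30, -4.34 and -4.23 in controls 1 to 4 and -4.66, -4.35 and -3.64 in cKO-labelled embryos 1 to 3. Control replicates 1 and 2 were low, while control replicates 3 and 4 lay among the cKO-labelled arrays. The Prlr difference was 0.68 ± 0.43 (SE, n = 4 and 3; limma, adjusted p = 0.620; interval -0.34 to 1.71). Kl encodes klotho, the co-receptor for a bone-derived fibroblast growth factor, and was dim: its signals were 18.9, 6.10, 16.2 and 14.4 units in controls and 35.5, 28.6 and 7.45 units in cKO-labelled arrays. It was well above background in control replicate 1 and in cKO replicates 1 and 2, and lay at the floor in control replicate 2 and cKO replicate 3. The Kl difference was 0.63 ± 0.38 (SE, n = 4 and 3; limma, adjusted p = 0.597; interval -0.27 to 1.53), and values at the floor understate it or hide its order. Within litter 2 the differences of Prlr and Kl were 0.67 and 0.50. Prlr gave 0.41 without control replicate 1, 0.40 without cKO replicate 3 and 0.28 with normexp and quantile normalization. Kl gave 0.30 without cKO replicate 1 and 1.11 without cKO replicate 3, and ranged from 0.15 with array weights to 1.39 within slide 1.

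Sostdc1 encodes a secreted antagonist of BMP and WNT signals. It read -4.85, -5.65, -5.23 and -4.85 in controls 1 to 4 and -5.37, -2.74 and -5.49 in cKO-labelled embryos 1 to 3. Replicate 2 of the cKO-labelled group stood apart from all 6 other embryos, while cKO replicates 1 and 3 lay within the control range. The 7.52-fold span between embryos was wider than in 97.8% of genes tested, and the SD was 1.55 in the cKO-labelled group against 0.38 in controls. With all arrays the difference was 0.61 ± 0.67 (SE, n = 4 and 3; limma, adjusted p = 0.781). Without cKO replicate 2 it was -0.29, within litter 2 it was 0.01 and within slide 2 it was 0.93.

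Enpp2 encodes autotaxin, the secreted enzyme that makes lysophosphatidic acid. Its signal was -0.36, -1.18, -0.65 and -0.45 in controls 1 to 4 and -0.66, -0.15 and -1.01 in cKO-labelled embryos 1 to 3. The highest and lowest embryos, cKO replicate 2 and control replicate 2, differed 2.04-fold. Between the groups the difference was 0.05 ± 0.26 (SE, n = 4 and 3; limma, adjusted p = 0.959), with an interval of -0.57 to 0.68. Its sign was not stable, being positive in 18 of 23 alternatives and negative in 5, which included the fit without cKO replicate 2 (-0.17).

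Calml4, which encodes a calmodulin-like protein, was either clearly detected or at background. Its processed signal was 46.7, 7.99, 4.88 and 36.9 units in controls 1 to 4 and 4.61, 42.1 and 0.35 units in cKO-labelled embryos 1 to 3. Control replicates 1 and 4 and cKO replicate 2 were well above background and the 4 others were not. Between the groups it differed by -0.23 ± 0.65 (SE, n = 4 and 3; limma, adjusted p = 0.926), with 2 of 4 controls and 1 of 3 cKO-labelled embryos detected. It was -0.83 without cKO replicate 2 and -1.37 when the floor was lowered to a signal of 1 unit.

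**Figure D2:**
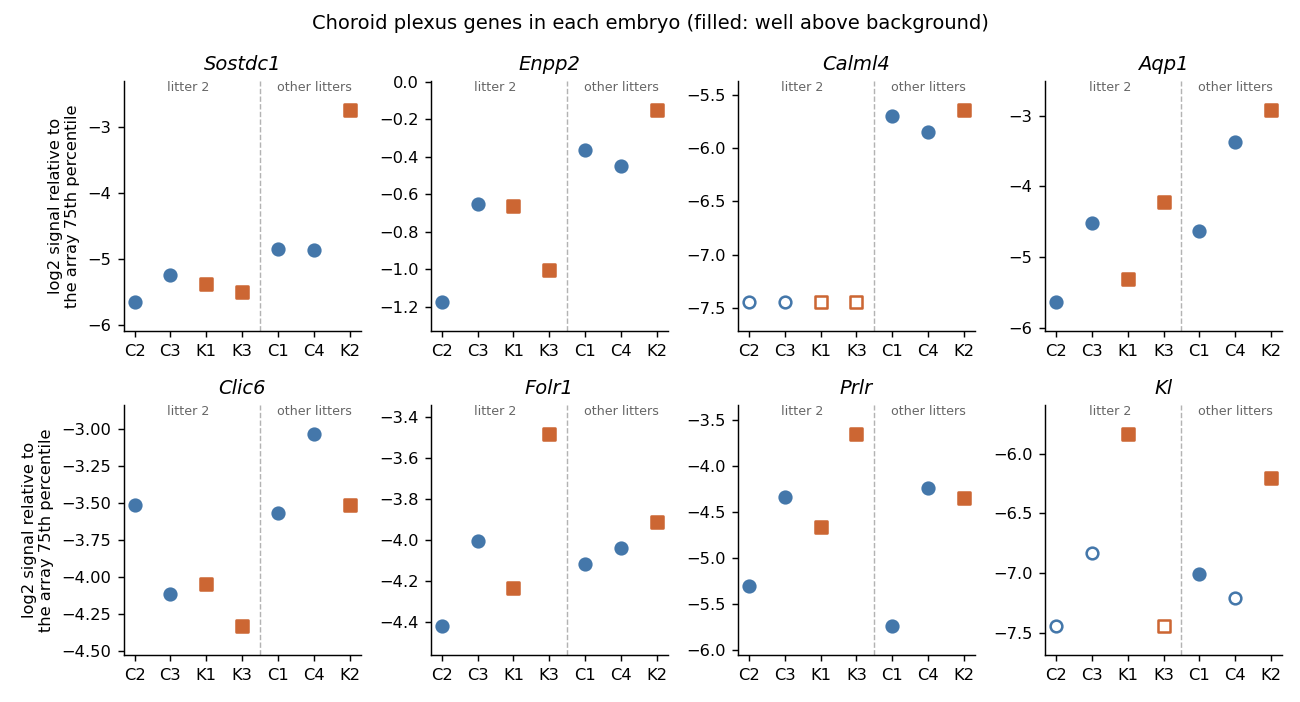
Log2 signal relative to the array 75th percentile for the 8 tested genes in each embryo, with controls C1 to C4 as blue circles and cKO-labelled embryos K1 to K3 as orange squares, ordered by litter. Filled symbols are well above background. Sostdc1, Enpp2 and Calml4 are higher in all 3 embryos of other litters than in all 4 of litter 2, and K2 is the highest embryo for Sostdc1, Enpp2, Calml4 and Aqp1. Calml4 passed the filter only through the 3 embryos of other litters.

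**Figure D3:**
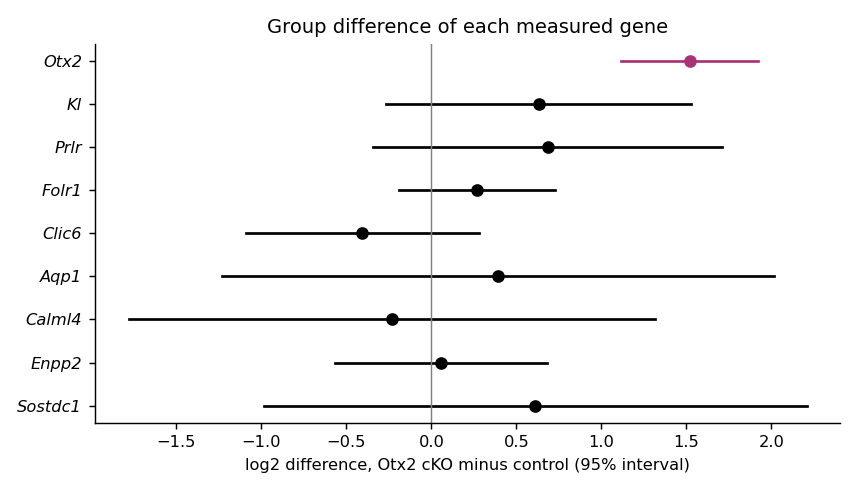
Log2 difference, Otx2 cKO minus control, for each tested gene and for Otx2, with points for limma estimates and lines for 95% intervals (4 controls and 3 cKO-labelled embryos). The interval of every choroid plexus gene includes 0, and that of Otx2 runs from 1.12 to 1.92.

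The intervals differ in what they allow. For Enpp2 and for the brighter Folr1 probe they exclude a 2-fold difference in either direction, with upper ends of 1.60-fold and 1.66-fold, but the interval of the second Folr1 probe, 0.25 to 1.88 on the log2 scale, does not. For Aqp1 and Sostdc1 they reach 4.04-fold and 4.62-fold higher. Among the 6 members well above background on all 7 arrays, cKO replicate 2 held the highest value for 3 (Aqp1, Sostdc1 and Enpp2), and it held the highest value for 29.5% of the 12310 genes tested and detected to that extent. Control replicate 2 held the lowest value for 4 of the 6 (Folr1, Aqp1, Sostdc1 and Enpp2), against 9.80% of those genes. The median difference over the 8 tested members was 0.33, against 0.01 over all genes tested, and was -0.20 without cKO replicate 2 and -0.04 within slide 1.

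The split by litter was looked for after the values were seen and is given as a description. All 3 embryos from outside litter 2 lay above all 4 embryos of litter 2 for Sostdc1, Enpp2 and Calml4, 3 of the 8 tested members, and below them for 0. Calml4 had passed the filter only through these 3 embryos, in which it was high, so its separation is description only. Among 12671 genes measured in all 7 embryos 3.89% lay above in this way and 3.33% below. The same direction within each genotype group follows from that choice. For Enpp2 the embryos outside litter 2 were higher by 0.51 among controls and by 0.68 among cKO-labelled embryos, for Sostdc1 by 0.59 and 2.69, and for Calml4, with litter 2 at the floor, by 1.67 and 1.80. Only 1 cKO-labelled embryo came from another litter. Aqp1 and Clic6 had means that were 1.28 and 0.63 higher outside litter 2, with overlapping values, while Folr1, Kl and Prlr differed by 0.01, 0.08 and -0.29.

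Many listed genes of the dorsal midline, but not all, moved with the same embryos. In a list of 15 roof plate and cortical hem genes, 7 of the 12 with a value on every array separated the litters in that direction: Msx1, Bmp4, Bmp6, Bmp7, Wnt3a, Wnt8b and Rspo1. Of all genes measured in all 7 embryos 3.89% did so. Wnt8b had passed the filter only through the 3 embryos from outside litter 2, so its separation is description only. Values overlapped for Msx2, Rspo2, Rspo3, Id3 and Gdf7, whose means differed from those of litter 2 by 0.59, 0.82, 0.31, 0.40 and -0.13. Bmp7, a ligand that acts in choroid plexus formation, read -0.41, -2.52, -1.19 and -0.15 in controls 1 to 4 and -1.54, 1.005 and -3.44 in cKO-labelled embryos 1 to 3. The embryos of other litters were thus the 3 highest for Bmp7, with a mean 4.98-fold that of litter 2. Bmp4 and Msx1, a ligand and a homeobox gene of the same region, were 5.14-fold and 3.20-fold higher there. Lmx1a, a LIM homeobox gene that marks the roof plate and hem, and Wnt2b were not well above background on any array. Between genotypes 0 of the 12 hem genes tested passed, against 0.210% of all genes. The smallest unadjusted p belonged to the WNT-amplifying Rspo3 and Rspo1, with differences of -0.49 ± 0.19 and -1.94 ± 0.75 (SE, n = 4 and 3; limma, adjusted p = 0.414 and 0.419). Without cKO replicate 3 Rspo3 and Rspo1 gave -0.31 and -1.19, and without cKO replicate 2 Rspo1 gave -2.86.

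Some markers of non-neural cells moved with these embryos as well. Of 11 mesenchyme and pericyte genes 7 separated the litters in the same direction, as did 4 of 10 endothelial and 7 of 10 microglia and macrophage genes, but 0 of 9 erythroid genes. Of all genes measured in all 7 embryos 3.89% did so. The summed signal of the 12 mesenchyme and pericyte genes, in multiples of the array 75th percentile, ran from 3.86 to 27.5 in controls and from 4.09 to 52.4 in cKO-labelled embryos. Spots marked as outliers were kept in it, among them those of Dcn in control replicate 1 and cKO replicate 2. The sum was lowest in control replicate 2 and highest in cKO replicate 2, the embryos that were lowest and highest for Aqp1, Sostdc1 and Enpp2. Other members differed: Folr1 and Prlr were highest in cKO replicate 3, Clic6 in control replicate 4 and Kl in cKO replicate 1. Calml4 was highest in cKO replicate 2, with all of litter 2 at the floor. Per-embryo medians of that list, relative to the control mean, were 0.46, -1.88, 0.57 and 0.82 in controls 1 to 4 and -1.14, 1.89 and -0.97 in cKO-labelled embryos 1 to 3. Corresponding medians of the choroid plexus members were 0.07, -0.45, 0.02 and 0.41 in controls and -0.16, 0.74 and -0.33 in cKO-labelled embryos. Litter 2 was not uniform: in the mesenchyme and pericyte medians its control replicate 3 (0.57) lay above control replicate 1 of litter 3 (0.46). For these embryos the endothelial medians were 0.15 and 0.04, and the microglia and macrophage medians were 0.015 and 0.30, the reverse order. Whether mesenchyme, vessels or dorsal midline tissue in the dissected pieces had a part in the members' values was not tested.

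**Figure D4:**
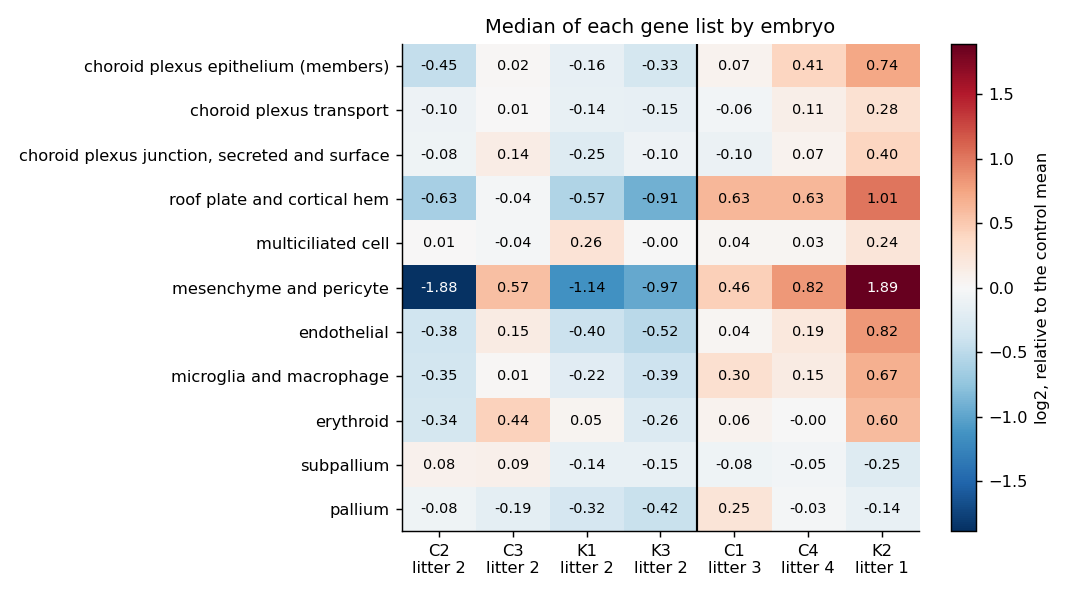
Median log2 value of each gene list in each embryo, relative to the mean of the 4 controls (C1 to C4 controls, K1 to K3 cKO-labelled), with litter 2 to the left of the line. The mesenchyme and pericyte row runs from -1.88 in C2 to 1.89 in K2, and the roof plate and cortical hem row is highest in C1, C4 and K2.

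The mean profile of the 6 members detected on every array was compared with that of every other gene detected on all arrays. Centred on its mean, the profile was -0.17, -0.57, -0.10 and 0.38 in controls 1 to 4 and -0.34, 0.78 and 0.02 in cKO-labelled embryos 1 to 3. Of 11656 genes ranked by their root mean square distance from it over the 7 arrays, the 8 closest non-members were Gja1, Bgn, Adgrl4, Ecscr, Tmem88, Lama1, Myct1 and Hpgd, at 0.094 to 0.129 log2 units. Gja1 encodes the gap junction protein connexin 43, Bgn the matrix proteoglycan biglycan and Lama1 a laminin chain of basement membranes, while Adgrl4 and Ecscr are known as endothelial genes. None of the 8 was in either of the other choroid plexus lists. Those lists held 15 and 20 genes against the 11656 ranked, so this is no result about the profile. The members themselves were farther from their own mean, from 0.29 for Enpp2 to 0.60 for Sostdc1, at ranks 653 to 10798.

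Other choroid plexus genes did not pass the test either. In a list of 15 transport genes 14 were tested and 0 passed, with 7 positive and 7 negative differences and a median of -0.03. Only 0.210% of all genes tested passed, so a count of 0 is no result about so short a list. The smallest unadjusted p belonged to Slc29a4, a monoamine transporter gene, at -0.34 ± 0.11, and to Slc4a2, an anion exchanger gene, at -0.22 ± 0.078 (SE, n = 4 and 3; limma, adjusted p = 0.360 and 0.379). Kcne2, a potassium channel subunit gene chosen after its values were seen, read -6.45, -5.29, -6.73 and -6.64 in controls 1 to 4 and -6.86, -7.45 and -7.45 in cKO-labelled embryos 1 to 3. All 4 controls and 1 of 3 cKO-labelled arrays were well above background, the groups did not overlap (as in 12.8% of all genes, 7.64% lower), and the difference was -0.98 ± 0.37 (SE, n = 4 and 3; limma, adjusted p = 0.411). Kcne2 had passed the filter through the controls, the group in which it was higher. Replicates 2 and 3 of the cKO-labelled group lay at the floor, so its order and difference are description only. Without control replicate 2 Kcne2 gave -0.65. Of the 14 transport genes tested, 3 were higher in all 3 embryos from outside litter 2, against 3.89% of all genes. These were Slc12a2, Slc13a4 and Car12, which encode a chloride cotransporter, a sulfate transporter and a carbonic anhydrase. The list median of the difference between these embryos and litter 2 was 0.11.

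A further list held 20 genes for junctions, secreted proteins and surface proteins of the epithelium. Of these 15 were tested, 0 passed (against 0.210% of all genes), 8 were positive, 7 were negative, and the median was 0.01. Wfdc2 and Vat1l had the smallest p, with differences of -0.56 ± 0.31 and 0.19 ± 0.10 (SE, n = 4 and 3; limma, adjusted p = 0.560 and 0.530). Wfdc2 gave -0.92 without cKO replicate 2 and -0.36 without cKO replicate 3. The tight junction gene Cldn1 and the coagulation factor gene F5 were not well above background on any array. Krt8, which encodes an epithelial keratin, and Igfbp2, which encodes an insulin-like growth factor binding protein, were higher in all 3 embryos from outside litter 2, Krt8 by 2.97-fold and Igfbp2 by 1.21-fold on average. They were 2 of the 14 genes of this list with a value on every array, against 3.89% of all genes. The list median of the difference between these embryos and litter 2 was 0.26.

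Calls over all genes were few and changed with single arrays. Limma called 28 genes with all arrays, 11 higher and 17 lower. It called 0 when any 1 of control replicates 2, 3 and 4 or cKO replicate 3 was left out, 3 without cKO replicate 2, 11 without control replicate 1 and 25 without cKO replicate 1. With all arrays 1473 genes had an unadjusted p under 0.05. In each of the 7 fits without 1 array 0 members passed, which was fixed where no gene was called.

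**Figure D5:**
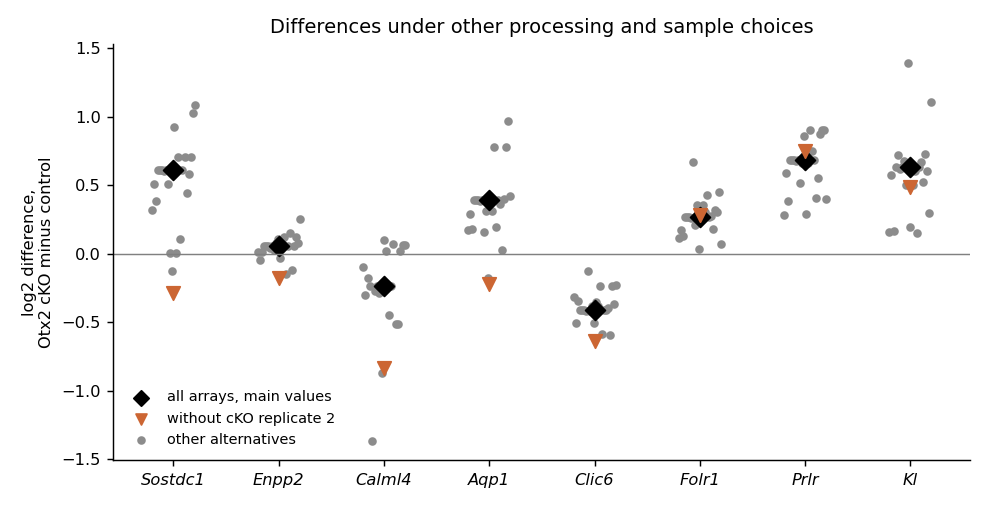
Log2 difference, Otx2 cKO minus control, of each tested gene with all arrays (black diamonds), without cKO replicate 2 (orange triangles) and under the other alternatives (grey points). Sostdc1, Aqp1 and Enpp2 change sign without cKO replicate 2 (-0.29, -0.22 and -0.17), whereas Prlr and Folr1 are positive and Clic6 negative throughout.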

How the data were processed

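Per the file headers, Cy3 signals of 1-colour Agilent whole mouse genome arrays were extracted with Agilent Feature Extraction 10.7.3.1 (the submitters' processing notes name version 10.5), and the deposited intensity is background-subtracted and detrended within each array, not between arrays. A second deposited file holds log2 values with no statement of scale or centring. Within each array it ranked probes as the median spot signal did, its column medians were 7.61, 7.63, 7.61 and 7.62 in controls and 7.62, 7.62 and 7.64 in cKO-labelled arrays, and it served as an alternative.

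The processed intensity of each non-control spot was scaled to the 75th percentile of its array, taken over probes, floored at a log2 value of -7.45 (the highest of the arrays' lowest signals well above background) and taken to log2. Spots marked as outliers by the scanner software (1.24% to 2.51%) were left out of the log2 values but kept in the summed signals. Gene symbols came from matching each probe's RefSeq accession to the GRCm38.p6 gene table, which differs from the mm9 build in the headers, so no coordinates are given. One symbol was found for 24844 of 41174 probes, several for 0 and none for 16330. Each gene was represented by its brightest probe. Of 13740 genes well above background on at least 3 arrays, 13346 had at least 2 unflagged values in each group and were tested with limma 3.58.1 in R 4.3.3 (group as the only term; Benjamini-Hochberg, threshold 0.05). Errors are limma's moderated standard errors. The number of arrays limits the precision.

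The members and the 10 other gene lists (choroid plexus transport; choroid plexus junction, secreted and surface; roof plate and cortical hem; multiciliated cell; mesenchyme and pericyte; endothelial; microglia and macrophage; erythroid; subpallium; pallium) were chosen with earlier results of these data known. Genes outside the members were named by rule: up to 4 list members past the threshold or otherwise the 2 with the smallest p, and the 8 genes closest to the members' mean profile. Genes that separated the litters were named after their values were seen. Alternatives changed the background correction, scaling, value table, filter, floor, outlier spots, probe choice, slide and litter terms, replicate block, weights, variance trend and the arrays included. The scanner files used here hold no mean spot signal, so the normexp alternative (offset 50) took the median spot signal.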

Additional observations from a re-analysis of the deposited data

Results flagged for a closer look

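Among the 4 controls, the per-embryo median of the mesenchyme and pericyte list stood apart in 1 embryo: control replicate 2 lay at -1.88 against 0.46, 0.57 and 0.82 in control replicates 1, 3 and 4, a gap of 0.866 of the whole range. Control replicate 2 was also the lowest of the 7 embryos for Folr1, Aqp1, Sostdc1 and Enpp2, but not for Clic6 or Prlr. This was 1 of 40 groups of control values examined, and chance alone marks about 1 in 20. No choroid plexus member was marked in this way.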

How the results depend on the processing

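The count of members past the threshold was 0 in all 23 alternatives, with the smallest adjusted p of a member at 0.303 (Folr1 with array weights). In some of these, such as litter as a block, no gene on the whole array was called. There the count of members could only be 0. Folr1, Kl and Prlr were positive and Clic6 negative in every alternative that gave a value. The median over the tested members moved to -0.044 within slide 1, and ran from -0.20 to 0.45 when 1 array was left out. Aqp1 and Sostdc1 turned to -0.17 and -0.12 within slide 1 and ran from -0.22 to 0.97 and from -0.29 to 1.09 without single arrays. Enpp2 turned to -0.043 with median scaling, -0.027 within slide 2 and -0.15 with array weights, and ran from -0.17 to 0.25 without single arrays. Calml4 turned to 0.10 within slide 2 and 0.020 with the replicate block, and ran from -0.83 to 0.070 without single arrays; with litter 2 alone or litter as a block all 4 embryos of litter 2 were at the floor, so its difference there is 0 by construction, and it enters the members' median of 0.198 as such.

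Genes called over the whole array numbered 43 in the authors' value table, 15 without a filter, 16 with slide as a block, 67 with array weights and 50 with a variance trend, 0 to 25 without single arrays, and 0 with litter as a block (865 genes at an unadjusted p under 0.05), within slide 1 (412), within slide 2 (1194), within litter 2 (846) and with the replicate block (1498). Otx2 lost its call without a filter (1.52), with slide or litter as a block (1.49 and 1.27), within slide 1, slide 2 and litter 2 (1.41, 1.54 and 1.27), with the replicate block (1.56) and without single arrays (1.33 to 1.61). The cause of these losses was not tested. Same-numbered replicates came from different litters except number 3, and their deviations correlated at 0.11, -0.53 and 0.03, so the numbers do not pair the samples. The count of 3 members that separated the litters was unchanged in 6 other processings and was 3 to 5 without single arrays, 5 without control replicate 1. These counts are no check of the split, which was chosen after the values were seen. Leaving out an array can only keep or raise the count, and the share of all genes was not taken for these settings. Calml4, Kl and Ttr were limited by signal near background.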

Other observations

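Genes of multiciliated cells, a fate that choroid plexus epithelial cells later acquire, were measured with a list of 15. Of these 10 were tested and 0 passed (against 0.210% of all genes), with 8 positive and 2 negative differences and a median of 0.15. The axonemal genes Tekt1 and Dnah5 had the smallest unadjusted p, with differences of 0.24 ± 0.081 and 0.43 ± 0.155 (SE, n = 4 and 3; limma, adjusted p = 0.368 and 0.388). Tekt1 was higher in all 3 cKO-labelled embryos than in all 4 controls, as were 5.14% of all genes. The other gene of the list with this order was Rsph1, a radial spoke gene named after its values were seen, at 1.38 ± 0.63 (SE, n = 4 and 3; limma, adjusted p = 0.482). Rsph1 was dim, and 3 of 4 controls were well above background. It read -6.72, -6.34, -6.92 and -6.17 in controls 1 to 4 and -5.98, -3.46 and -6.02 in cKO-labelled embryos 1 to 3. Only cKO replicate 2 stood well apart from the controls. Ccno, which encodes a cyclin-like protein of multiciliated cells, instead separated the litters: it read -2.28, -4.91, -4.52 and -2.43 in controls 1 to 4 and -4.29, -2.47 and -5.54 in cKO-labelled embryos 1 to 3. The 3 embryos from outside litter 2 were the highest, 5.36-fold above litter 2 on average. Dynlrb2, a dynein light chain gene, separated the litters in the same direction, 1.62-fold. Ccno and Dynlrb2 were the only 2 of the 10 tested genes to do so, against 3.89% of all genes. The list median of the difference between the other litters and litter 2 was 0.016.

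Calml4 was detected in control replicates 1 and 4 and cKO replicate 2. Of 283 named genes that were well above background on exactly 3 arrays, 34 (12.0%) were detected on these same 3, among them 1 other listed gene, the hem gene Wnt8b. The most frequent set of 3 arrays, control replicates 3 and 4 with cKO replicate 2, held 35 genes.

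Of the remaining lists, no gene passed (against 0.210% of all genes) among 12 mesenchyme and pericyte, 10 endothelial, 10 microglia and macrophage, 9 erythroid or 9 pallial genes tested, with median differences of -0.29, -0.06, -0.03, 0.07 and -0.03. Leaving out single arrays turned the sign of 4 of these medians: they ran from -0.99 (without cKO replicate 2) to 0.43 (without cKO replicate 1) for mesenchyme and pericyte, -0.50 to 0.20 for endothelial, -0.36 to 0.16 for microglia and macrophage and -0.14 to 0.45 for erythroid genes, the last 3 between the fits without cKO replicate 2 and without cKO replicate 3. The pallial median ran from -0.28 without cKO replicate 1 to -0.03. In the subpallium list 1 of 12 passed, Lhx6, lower by -1.18 ± 0.15 on the log2 scale (SE, n = 4 and 3; limma, adjusted p = 0.0492), with a list median of -0.11. That call was lost in 17 of 23 alternatives, among them 6 of the 7 fits without 1 array (all but that without cKO replicate 1). The adjusted p of Lhx6 from limma was 0.108 with slide as a block, 0.656 with litter as a block and 0.651 within litter 2, and its difference ran from -1.38 to -0.83.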
